A study of Drosophila melanogaster with 3 samples.

Results

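The genes of the Drosophila GATA family, pnr, srp, grn, GATAd and GATAe, and the gene of the GATA cofactor ush were examined for binding of pdm3, a transcription factor with a POU domain and a homeodomain. They are 6 of the 13945 protein-coding genes on the 6 chromosome arms, and were chosen by the signal values of their peaks in these libraries, ush above all, so every count and rank of their peaks is a description and none was tested. A peak was assigned to a gene when its summit lay between the gene's ends or up to 5 kb outside them. By that rule 30 of the 8164 reproducible peaks belonged to these genes, or 0.367%.

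The data are chromatin immunoprecipitation sequencing of 3 biological replicates of whole white prepupae, male and female mixed, all from a line carrying pdm3 fused to GFP at its C terminus. The white prepupa is the motionless animal at the start of metamorphosis. Chromatin was sonicated to 200 to 800 bp. The sample descriptions say that the antibody was against GFP, while the antibody label names pdm3, so whether the peaks are those of the fusion protein alone is not settled by the labels. There was 1 group, with no untagged or untreated animals to set against it, and the authors' control library was not analysed here. The whole animal was used, so the lists do not say in which tissue a peak arises. For each replicate the authors deposited 30000 candidate peaks, for the pooled replicates 30000 more, and from these a list of 8164 reproducible peaks, called optimal here, all on the dm6 assembly. The lists give no read counts, so depth is unknown. Signal values are the authors' own per-peak values and serve here to rank peaks within a list, with rank 1 the highest.

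GATA factors are zinc finger proteins that bind DNA at sites with the core GATA. In flies, srp is known for the formation of blood cells, fat body and endoderm, pnr for the dorsal epidermis, the bristle pattern of the notum and the heart, GATAe for the differentiation and upkeep of the midgut, and grn for the shape of the posterior spiracles. The protein ush, the fly member of the Friend of GATA family, has many zinc fingers and tunes or represses the activity of pnr and srp by binding to them. The genes differ in size. The ush gene (FBgn0003963, chr2L:476220-540560, plus strand) is 64.3 kb long and has 4 start sites, and only 1.41% of protein-coding genes are longer. The gene cbt, which encodes a zinc finger transcription factor, lies inside its first intron on the other strand. On 3R the genes srp (FBgn0003507, chr3R:15986152-16004085), GATAe (FBgn0038391, chr3R:16009105-16019133) and pnr (FBgn0003117, chr3R:16026079-16041796) follow each other on the plus strand, so their 5 kb margins overlap. The gene grn (FBgn0001138, chr3R:8147368-8181444, minus strand) is 34.1 kb long and GATAd (FBgn0032223, chr2L:10333734-10339185, plus strand) 5.45 kb.

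The sequences under the highest summit of each gene that had one, and under the next highest of ush, are given first, because the ranks below refer to them. Each runs 5′ to 3′ on the plus strand of the RefSeq sequence of dm6, centred on the pooled summit, and capitals mark the stretch from the lowest to the highest of the pooled summit and the 3 replicate summits. The first spans chr2L:480964-481164, the second chr2L:480021-480121, that of pnr chr3R:16042308-16042408, that of srp chr3R:15984577-15984677, that of grn chr3R:8171618-8171746 and that of GATAd chr2L:10339271-10339371. Short capital stretches are summits on which the replicates met closely.
ush summit 481064: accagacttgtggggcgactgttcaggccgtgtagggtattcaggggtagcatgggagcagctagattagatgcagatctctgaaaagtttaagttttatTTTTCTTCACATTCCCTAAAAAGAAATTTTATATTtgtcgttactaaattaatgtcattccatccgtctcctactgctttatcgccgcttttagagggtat
ush summit 480071: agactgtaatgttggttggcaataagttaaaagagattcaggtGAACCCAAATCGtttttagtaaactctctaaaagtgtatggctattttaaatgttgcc
pnr summit 16042358: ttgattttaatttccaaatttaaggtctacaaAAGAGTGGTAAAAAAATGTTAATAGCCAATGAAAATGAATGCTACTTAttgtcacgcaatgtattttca
srp summit 15984627: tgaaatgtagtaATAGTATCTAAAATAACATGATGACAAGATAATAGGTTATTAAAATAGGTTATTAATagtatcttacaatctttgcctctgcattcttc
grn summit 8171682: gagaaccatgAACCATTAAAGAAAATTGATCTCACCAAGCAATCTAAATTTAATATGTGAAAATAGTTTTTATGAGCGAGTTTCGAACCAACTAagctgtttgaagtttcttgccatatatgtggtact
GATAd summit 10339321: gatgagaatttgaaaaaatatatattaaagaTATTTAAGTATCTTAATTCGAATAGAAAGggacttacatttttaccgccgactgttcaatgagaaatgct

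The genes differed in how many summits they had. The cofactor gene held 22 optimal summits, GATAd 3, grn 2, pnr 2, srp 1 and GATAe 0. Thus 5 of the 6 genes had at least 1, in a genome where 48.2% of protein-coding genes did. Among genes of 5 to 50 kb, the size class of the 5 GATA factor genes, the share was 66.4%, and 4 of those 5 had a summit. Among genes of 50 kb or more, the class of ush, it was 79.8%. Counting inside the gene only, ush, grn and GATAd had a summit, 3 of 6, against 14.2% of all genes. That share was not split by size, and the 6 genes are all longer than the median gene of 2.17 kb. All 6 genes had at least 1 peak among the pooled candidates, as did 69.7% of all genes. These shares are the background for every count below. The presence of a summit in a GATA factor gene or within 5 kb is close to what genes of that size showed.

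Few genes had as many summits as ush, which was chosen by its peaks. As many or more were found at 0.0574% of protein-coding genes, and at 2.61% of the 307 genes of 50 kb or more, ush included in both. Long genes had a median of 5 optimal summits, with quartiles of 1 and 10. Per length, ush with its margins held 2.96 optimal summits per 10 kb, against 0.61 over the 6 arms, a ratio of 4.85. Among the long genes 2 were denser.

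**Figure D1:**
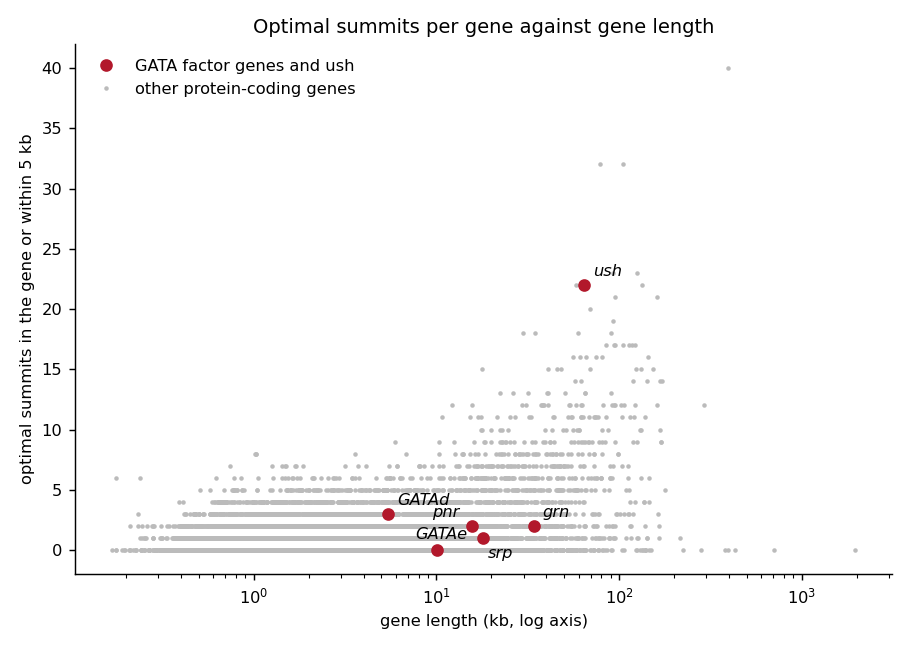
Optimal summits in each protein-coding gene or within 5 kb (vertical axis) against gene length in kb (horizontal log axis); each point is 1 gene, with the 5 GATA factor genes and ush in red above the other genes in grey. The point for ush lies at 22 summits and 64.3 kb, while the GATA factor genes lie between 0 and 3.

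The highest summit of ush, at base 481064 of 2L in the peak chr2L:480827-481347, had a signal value of 4027 and was the second highest of the whole optimal list. It ranked 2 in replicate 1, 2 in replicate 2 and 2 in replicate 3, with signal values of 1366, 971 and 1652. No spread in rank was seen, although the signal values, which depend on the library, differed. The summit lies in the first intron of the longest ush transcript, an intron of 49060 bp, 4844 bp from the first ush start site and 1376 bp from the start site of cbt. Its position therefore does not tell ush from cbt, and MED15, which encodes a subunit of the Mediator complex, lies within 5 kb as well. The replicate summits were 28, 19 and 34 bp from the pooled one, all to the same side.

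The next highest summit of ush was its neighbour at 480071, with a signal value of 1356 and a rank of 97. It ranked 100, 81 and 101 in replicates 1, 2 and 3, so the replicates placed it almost alike. It lies 383 bp from the start site of cbt. On the other side of that start site, in the 5′ UTR of cbt, the summit at 479156 had a signal value of 235 and ranks of 3153, 725 and 13773. Here the replicates spread widely, with replicate 2 high and replicate 3 low. The fourth summit at the cbt end, at 481900, had a signal value of 239 and ranked 2677, 2084 and 4842. Of the 22 summits, 6 were nearer to a start site of another gene than to one of ush, 4 of them to cbt and 2, upstream of ush, to CG4297. Those at CG4297, at 472451 and 471353, had signal values of 445 and 161 and lay 251 and 202 bp from its start site.

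The other 16 summits had a ush start site as their nearest. At the second start site of ush the summit at 490812 lay 23 bp away, but its signal value of 93.2 was near the lowest of the optimal list, 89.8. It ranked 9722 in replicate 1 and 2363 in replicate 2 and was not covered in replicate 3, and it was the ush summit that failed to be covered by all 3 replicate lists. A summit at 490241, in a 5′ UTR of ush 594 bp from that start site, had a signal value of 127 and ranks of 12376, 5027 and 4931. The nearest optimal summit to the first ush start site was 2936 bp away, and to the start sites at 523466 and 523736 it was 525 and 795 bp away. A candidate 1 bp from the last of these start sites, at 523737, fell just short of the optimal list with a signal value of 83.3 and a rank of 8805. The start sites of ush thus had a low optimal summit, or none, within 500 bp.

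Along ush the optimal summits formed 2 runs. The largest gap between neighbours, 17242 bp from 493484 to 510726, held 7 pooled candidates and no optimal summit, whereas the median gap was 1742 bp. Before it lay 12 summits and after it 10. In the run before it the summits at 485896, 488499, 493484 and 486109 had signal values of 384, 250, 198 and 166. The peaks of the first and the last of these, chr2L:485772-486012 and chr2L:485899-486318, overlap. In the run after the gap the highest summit in the first intron, at 516241, had a signal value of 422 and ranks of 1199, 1463 and 1239. The summit at 512253 followed with 320 and ranks of 1666, 4412 and 1559, lower in replicate 2, and that at 520856 with 317 and ranks of 2737, 1581 and 1894. Those at 522941, 510726, 518130 and 522115 had signal values of 191, 186, 147 and 114.

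The second intron, of 10586 bp, held 3 summits. The highest of them, at 530427, had a signal value of 514 and a rank of 892, and ranked 870, 757 and 1029 in the replicates. It was the highest ush summit away from cbt, 6691 bp from the nearest start site, which is one of ush. The summits at 527164 and 526323 had signal values of 113 and 110. By position 16 of the 22 ush summits were intronic, 4 had a start site within 500 bp and 2 were in a 5′ UTR. The 4 include those at 472451 and 471353 beside CG4297 and that at 480071 beside cbt. The 2 include that at 479156 in cbt. The shares of these classes over all optimal peaks are not given here.

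**Figure D2:**
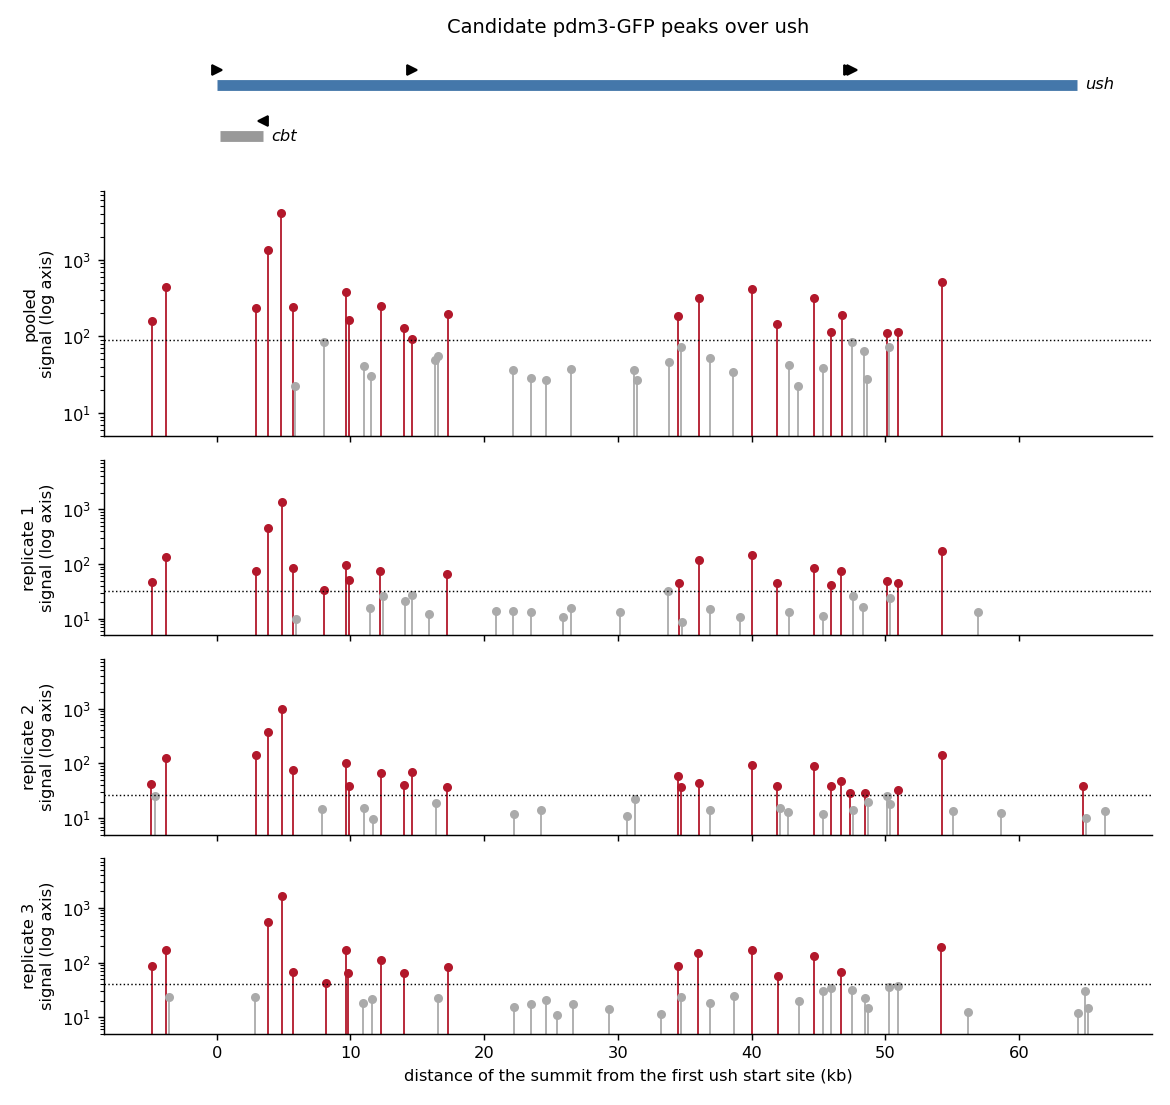
Signal value (vertical log axes) of each candidate peak over ush and 5 kb to either side, against the distance of its summit from the first ush start site in kb, for the pooled list and each replicate; red peaks are among the 8164 highest of their list, dotted lines mark the lowest of those, bars show ush and cbt and arrowheads their start sites. The 2 tallest peaks stand beside cbt in every list, and between about 17 and 34 kb no red peak was seen in the pooled list. Replicate peaks without an optimal counterpart stand along the gene. Red ones among them lie at 8.06 kb in replicate 1, at 8.14 kb in replicate 3, and at 47.4, 48.5 and 64.8 kb in replicate 2. Replicate 2 also has a red peak at 34.7 kb, close to the optimal summit at 34.5 kb.

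Of the GATA factor genes, srp had the highest summit. It lies at 15984627, in the peak chr3R:15984524-15984724, 1525 bp upstream of the first srp start site, and had a signal value of 316 and a rank of 1832. It ranked 3326, 1608 and 1591 in replicates 1, 2 and 3, so replicates 2 and 3 placed it close together and replicate 1 lower. Of the 3 optimal summits of the cluster it was the only one whose nearest start site belongs to a GATA factor gene. Within srp the highest candidate, at 15993559, had a signal value of 56.6 and a rank of 12370, well below the optimal list.

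Both pnr summits lie past the end of the gene. The one at 16042358, 562 bp downstream, had a signal value of 220 and ranks of 3233, 2233 and 4150. The one at 16043057, 1261 bp downstream, had 125 and ranks of 7522, 5134 and 6499. The nearest start site of both is that of Jhbp4, at 1140 and 441 bp. At the first of the 3 start sites of pnr a candidate 110 bp away, at 16025969, had a signal value of 86.2. Its rank of 8519 was just outside the optimal list, and its replicate ranks were 11426, 4629 and 12442. Only replicate 2 placed that candidate among its 8164 highest. The candidate nearest to the last pnr start site, at 16036223, lay 1637 bp away and had a rank of 11076.

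The gene GATAe, which lies between the other genes of the cluster, had no optimal summit. Its highest pooled candidate, at 16023920, had a signal value of 81.0 and a rank of 9040, and ranked 9481, 14214 and 11712 in the replicates. That candidate lies 4787 bp past the end of GATAe and 2159 bp before pnr, so it counts for both genes. The candidates within 500 bp of a GATAe start site, at 16009396, 16012117 and 16012330, ranked 20111, 18427 and 22472. None of the replicate lists had a GATAe candidate among its 8164 highest. A gene without an optimal summit is one without a reproducible peak in these lists, and at unknown depth this does not show that it is unbound.

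**Figure D3:**
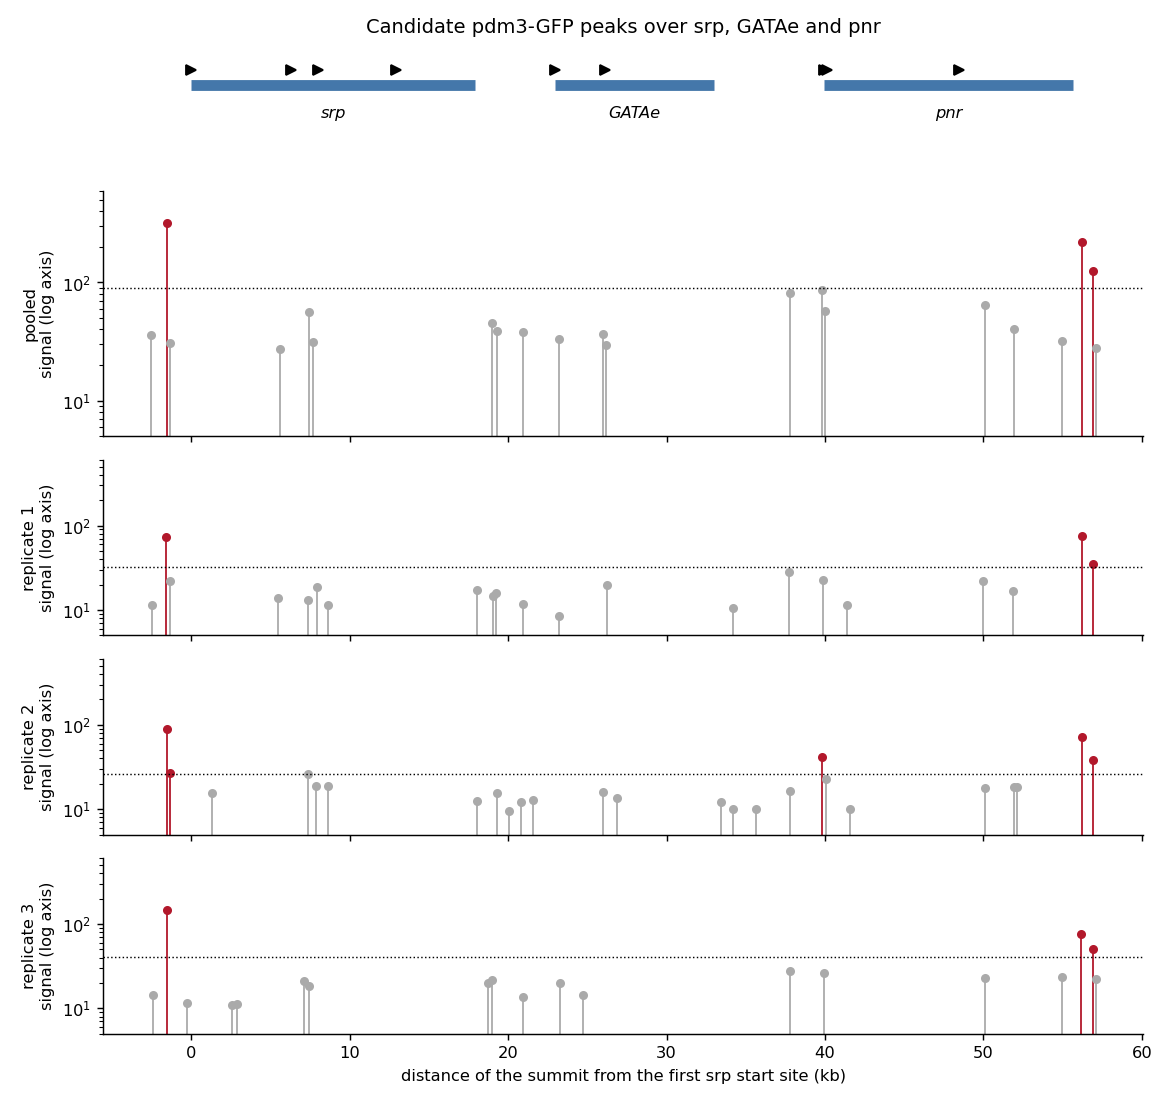
Signal value (vertical log axes) of each candidate peak over srp, GATAe and pnr and 5 kb beyond, against the distance of its summit from the first srp start site in kb, for the pooled list and each replicate; red peaks are among the 8164 highest of their list, dotted lines mark the lowest of those, and arrowheads mark start sites. Red peaks stand at both ends of the cluster in every list and none at GATAe. Replicate 2 alone has a red peak at the first pnr start site and a second one before srp.

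The 2 summits of grn lie in introns of the gene. The one at 8171682, in the second intron of 11237 bp and 9762 bp from the single start site, had a signal value of 197 and ranks of 3827, 4768 and 3415. The one at 8154141, in the fifth intron and 27303 bp from the start site, had 112 and ranks of 6849, 12289 and 6146, lower in replicate 2 than in the others. No other protein-coding gene lay within 5 kb of either summit. The nearest optimal summit outside the limit, at 8142315, lay 5053 bp past the end of grn with a signal value of 204, so a slightly wider limit would add it. For ush the summits on either side of the limit lay at 4867 and 5430 bp.

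The highest summit of GATAd was the lowest among the highest summits of the 5 genes that had one, and 1 of its 3 summits was covered in all 3 replicate lists. The one at 10339321, 136 bp past the gene, had a signal value of 144 and ranked 4608, 10944 and 3918. It lies 136 bp from the start site of SamDC, which encodes an enzyme of polyamine synthesis. The ones at 10341542, 74 bp from the start site of CG31715, and at 10335157, in the first intron of GATAd, had signal values of 115 and 105, and neither was covered in replicate 2. Replicate 2 had no GATAd peak among its 8164 highest, while replicates 1 and 3 had 2 and 4.

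Ordered by the rank of the highest candidate in each replicate, ush came first in all 3. The range of pnr over replicates overlapped with those of srp and grn, so its place beside either is within the spread. The ranges of srp, 1591 to 3326, and grn, 3415 to 4768, did not overlap. The range of GATAd overlapped with those of grn and pnr, and with that of GATAe. GATAe ranked below all the other 5 genes in every replicate. Replicate by replicate, srp ranked above grn in all 3 and pnr above grn in replicates 1 and 2.

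**Figure D4:**
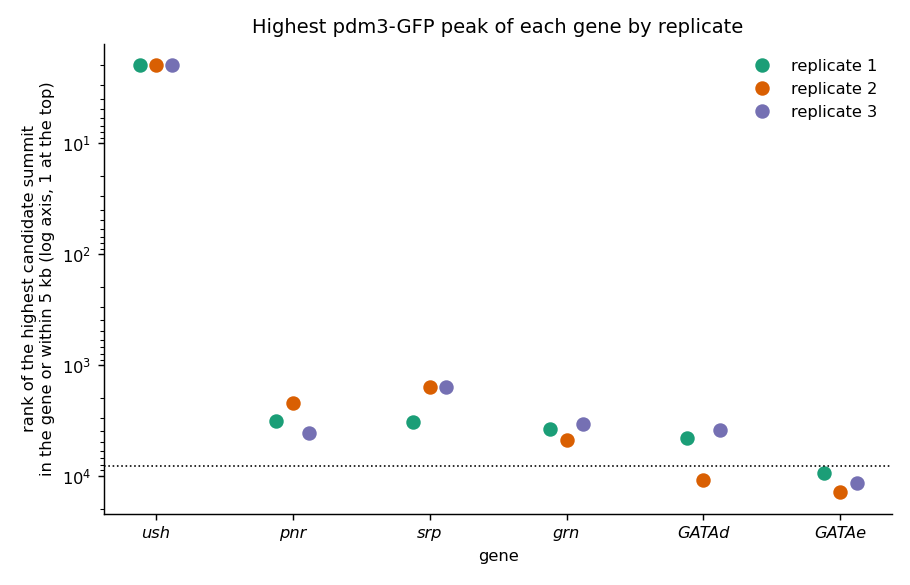
Rank of the highest candidate summit in each gene or within 5 kb (vertical log axis, 1 at the top) in each replicate list, 1 point per replicate; the dotted line marks rank 8164. All 3 points of ush lie at rank 2, those of srp, pnr and grn lie between 1591 and 4768, and those of GATAe lie between 9481 and 14214, past the line.

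Across replicates the summits of these genes were found again about as often as others. Of the 30, 27 were covered over at least 50% of the peak in all 3 replicate lists, 21 of them at ush, against 91.2% of all optimal peaks. In the lists cut to their 8164 highest peaks 20 were covered by all 3, 16 of them at ush, against 62.3% of all. The cut lists of replicates 1, 2 and 3 held 28, 32 and 27 summits at these genes (29.0 ± 2.65, SD, n = 3), of which ush had 21, 25 and 18. The whole candidate lists held 81, 89 and 84. For the 27 summits covered by all 3, the lowest replicate rank was a median 1.59 times the highest, and for 20 of them the ratio was under 2. Replicate 2 ranked 12 of them higher than the others did, replicate 3 ranked 10 and replicate 1 ranked 4, with the ush summit at 481064 tied. Over these 27 summits, which include neighbours and were selected on the same libraries, Spearman's rho between ranks was 0.81 for replicates 1 and 2, 0.74 for replicates 1 and 3, and 0.67 for replicates 2 and 3. The replicate summits lay a median 13.0 bp from the pooled one, and 75 of 81 lay within 50 bp.

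**Figure D5:**
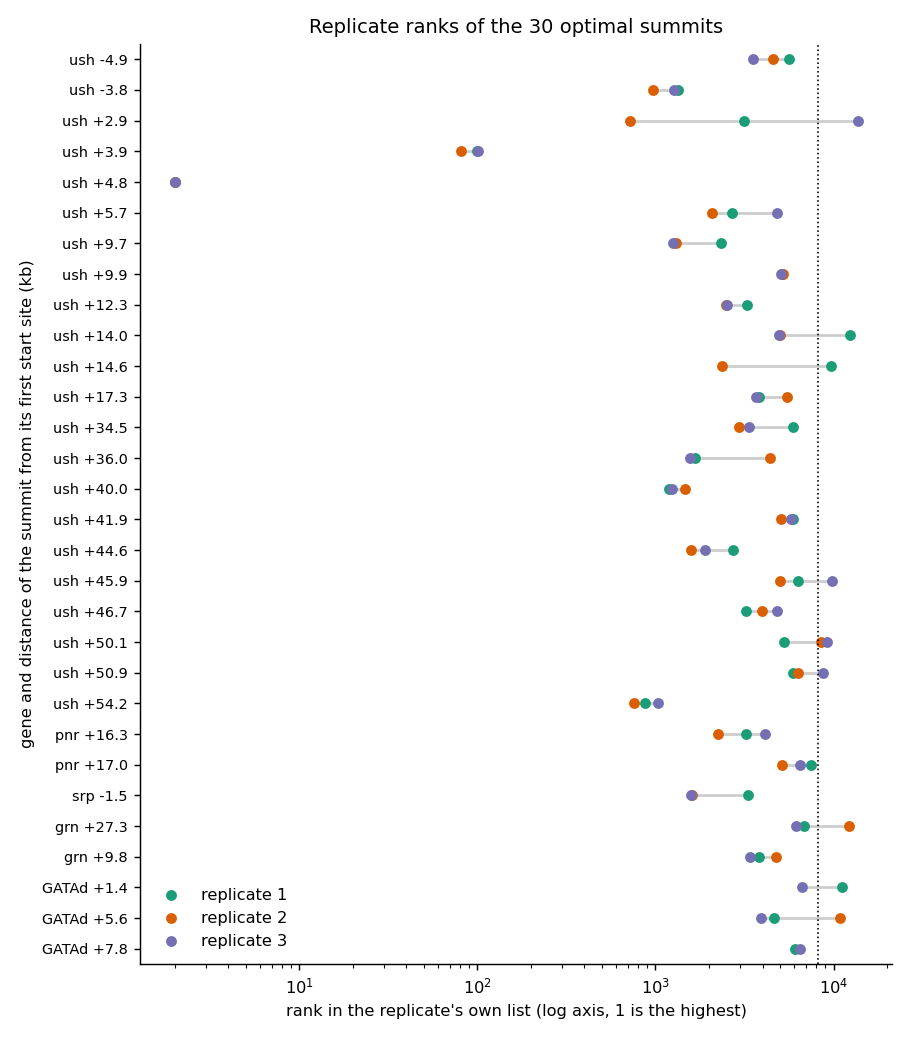
Rank in each replicate list (horizontal log axis, 1 the highest) of the peak whose summit is nearest to each of the 30 optimal summits, with 1 line per summit named by gene and distance from the first start site in kb, 1 point per replicate that had a peak there, and rank 8164 dotted. The points of the ush summits at +4.8 and +3.9 kb coincide or nearly so, and the ush summit at +2.9 kb spreads from 725 to 13773.

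In signal value the ush summits had a median of 216, the other 8 a median of 134, and all optimal peaks a median of 173. Above the median of all lay 14 of the 22 ush summits and 3 of the other 8. By the replicate ranks of the highest summit, the genes most like ush were MED15 and cbt, which share the same summit. Next were CG14100, CG9231, CG9330 and, tied with these, ash1, which share the highest peak of the optimal list, chr3L:19590403-19590846 (ranks 1, 3 and 1), with a mean difference of 0.259 in log10 rank over the 3 lists. The likeness is one of rank in 3 lists and says nothing of the genes themselves.

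The letters under the summits were then searched for 8 words, 5 to 8 letters long, in the 101 bp around each summit, on both strands. GATAA, part of the sites that GATA factors bind, was present at 7 of the 30 summits, 5 of them at ush, 1 at srp and 1 at GATAd. That is 23.3%, against 23.4% of all optimal summits. At srp it starts 11 bp before the summit, inside the capitals of the srp sequence above, and at the ush summit 520856 it starts on the summit base. The longer AGATAAG, which contains GATAA, was found at 0 of the 30, against 1.46% of all. The octamer ATGCAAAT, known as a site of POU factors, was found at 0 of the 30, against 1.59%, and its part ATGCAA at 2, both at ush, against 10.03%. The homeodomain word TAATTA was at 1 summit, the ush summit 471353, against 10.1%. TATCGATA and CAGGTAG were each at 0, against 0.784% and 0.343%.

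The word GAGAGAG, which the GAGA factor binds, was at 3 of the 30 summits, against 1.26% of all optimal summits. All 3 were at ush, at 490812 beside the second start site, at 510726 and at 518130, none of them among the 4 highest ush summits. They are shown because this word differed most from its share over all summits. The windows are chr2L:490762-490862, chr2L:510676-510776 and chr2L:518080-518180, 5′ to 3′ on the plus strand, and capitals mark every match, here CTCTCTC, the word read on the other strand. The last match starts at base 490776 in the first window and at base 510698 in the second, both before the summit, and on the summit base 518130 in the last. The windows had a median GC content of 32.7% over the 30 summits, against 31.7% over all. A matching word is a run of letters in a window and not a measured site.
ush summit 490812: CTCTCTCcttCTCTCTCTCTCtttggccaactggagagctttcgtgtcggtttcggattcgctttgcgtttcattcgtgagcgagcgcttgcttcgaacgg
ush summit 510726: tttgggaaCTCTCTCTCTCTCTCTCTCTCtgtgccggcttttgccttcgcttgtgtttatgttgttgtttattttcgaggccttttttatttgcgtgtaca
ush summit 518130: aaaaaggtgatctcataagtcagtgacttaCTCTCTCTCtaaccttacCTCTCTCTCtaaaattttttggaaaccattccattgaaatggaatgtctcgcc

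Cofactors and partners of GATA factors, genes of the notum, heart, blood and gut, and fat body and immune targets of srp were taken as 6 lists. They held 67 annotated genes. The notum, heart, blood and gut lists were not lists of known GATA targets. Of the 67 genes of all 6 lists 38, or 56.7%, had an optimal summit in the gene or within 5 kb. The share of all protein-coding genes given above was 48.2%. The 67 genes had a median length of 5.49 kb, against 2.17 kb for all, and longer genes had summits more often. By the 5 kb rule the set stood near the background, though no share was computed for genes of like length. Within gene spans alone 20 of the 67 had a summit, against 14.2% of all protein-coding genes. A summit within 5 kb of several genes was counted for each, so it does not single out the listed gene. The highest summits of tup and HDAC1, for example, each had 4 protein-coding genes within 5 kb, the listed gene included.

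Among cofactors and partners 7 of 9 had a summit. The highest was at Mi-2, the nucleosome remodeller of the NuRD complex, with a signal value of 1272 and ranks of 119, 138 and 105. The LIM homeodomain gene tup had 1051 with ranks of 214, 153 and 180. The acetyltransferase gene nej and the deacetylase gene HDAC1 had 557 and 554, and neither of these summits was covered in replicate 2. Chi, whose product links pnr to proneural factors, and the LIM homeodomain gene ap had none.

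Of the notum genes 7 of 12 had a summit. The BMP ligand gene dpp had a signal value of 1380 with ranks of 93, 66 and 110, and its receptor gene tkv had 707, with 11 summits in 52.4 kb. The tendon cell gene sr had 339, not covered in replicate 3, and the Wnt ligand gene wg had 327. The proneural genes ac and sc, which pnr activates in the notum, had none. Of the heart genes 3 of 9 had a summit, the homeobox gene tin with 463, the T-box gene Doc1 with 280 and the nuclear receptor gene svp with 125, while Doc2 and Doc3 had none.

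Of the blood genes 10 of 17 had a summit. The kinase gene msn had 858 and 13 summits in 31.7 kb, the Hox gene Antp 399, the scavenger receptor gene Sr-CI 379 and the PDGF and VEGF receptor gene Pvr 306. The hemocyte markers Hml and He had none. Of the gut genes 6 of 9 had a summit, cad with 265, the POU gene nub with 230, fkh with 218 and Sox21a with 187, while hkb and byn had none. Of the fat body and immune genes 5 of 11 had a summit. Adh had 660, the larval serum protein gene Lsp2 430, the yolk protein gene Yp3 415, and Fbp2 294, the last not covered in replicate 2. Within 5 kb of these summits lay 5 protein-coding genes each at Lsp2 and Fbp2, and 3 each at Adh and Yp3, the listed gene included. Fbp1 and Lsp1alpha had none.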

How the data were processed

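Chromatin immunoprecipitation was sequenced in 3 replicates of 1 group, per the labels, whose descriptions give anti-GFP and whose antibody field gives pdm3. The authors deposited narrowPeak lists. Per the readme among the deposited files, candidate lists derive from each library or the pool with a control, and the optimal list from an analysis of the irreproducible discovery rate. The deposited per-peak signal values are the authors' own, with normalization, peak caller and thresholds not given in the sources used here. Lists on dm3 were not used.

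Coordinates are on dm6, counted from 1. Genes came from Ensembl release 115 and sequence from RefSeq. A peak counted as covered where a replicate list overlapped at least 50% of it, and its replicate rank is that of the overlapping peak with the nearest summit. Named were all members, their optimal summits and the 5 genes most like ush. From each list up to 4 genes with and 2 without a summit were named, and Pxn and PPO3 besides. The symbol Bar-H1 was not in the annotation. The members, lists and words were chosen with earlier results of these data known. Counting was tested on simulated data. Alternatives changed the distance, the peak set, the overlap and the replicates. Python 3.11.15, numpy 2.4.6, pandas 2.3.3 and matplotlib 3.10.9 were used.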

Additional observations from a re-analysis of the deposited data

How the results depend on the processing

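Of 54 alternatives 39 left a count within 1.5 times its reported value or, for the share of all genes (48.2%), within the SD of 1.81 percentage points over the replicate lists. Within gene spans alone, 3 of the 6 genes had an optimal summit, as did 20 of 67 partner and pathway genes and 14.2% of all protein-coding genes. The share of all genes was 28.3% within 1 kb and 64.5% within 10 kb. With the higher-signal 50% of the optimal peaks the 6 genes had 17 summits, ush 14, and the share of all genes was 35.8%. It was 38.0% for peaks in the top of all 3 replicate lists. The mean number of summits in replicate lists cut to their highest peaks, 29.0, was 15.3 with lists cut to 50% of that length and 84.7 with all candidates. With 100 bp to either side GATAA was at 12 of 30 summits (40.0%), against 39.6% of all. With 25 bp to either side it was at 6 of 30 (20.0%), against 12.2% of all. The difference at the narrower window was not tested. Leaving out 1 replicate at a time, optimal peaks were kept where the cut lists of both other replicates covered them, a condition the main counts lack. That gave 21 to 23 summits at the 6 genes, 16 to 19 at ush and 4 to 5 genes with a summit. With all 3 cut lists required, these counts were 20, 16 and 4, so the lower counts do not measure the loss of a replicate. Under the same condition 31 to 33 partner and pathway genes and 39.6 to 42.8% of all genes had a summit. The whole lists kept covered 27 to 29 summits. The cut lists kept held a mean of 27.5 to 30 summits, an alternative chosen after seeing the data. These sets select from the pooled list, and no peaks were recalled from fewer libraries. The optimal list is fixed by the authors' threshold, depth is unknown, and 3 replicates of 1 group allow no comparison between conditions.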

Other observations

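The 8 protein-coding genes with at least 22 optimal summits, named after their values were seen, were kirre with 40, CG43658 and sbb with 32 each, CG1677 and Tet with 23 each, and Ptp61F, shn and ush with 22 each. The 2 long genes denser in summits than ush (2.96 per 10 kb) were sbb with 3.59 and shn with 3.22 per 10 kb. Of these 8 genes ush, which was chosen for a high peak, had the highest single peak, with rank 2 in the optimal list, and Tet followed with rank 86. That ush peak is also the highest of cbt and MED15. The highest ush summit away from cbt had rank 892. The highest peaks of the other genes ranked from 86 at Tet to 861 at Ptp61F.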
